A study of Mus musculus with 13 samples.

Results

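The genes described here are 10 markers of macrophages, namely Csf1r, Cd68, Ms4a7, Fcgr3, Adgre1, Mrc1, Cd163, Cd14, Tyrobp and C1qa, in mouse melanocytes and melanocytic lesions. They were taken by name. Each was read by 1 probe set, and all 10 were among the 19937 genes tested, with no filter on low values.

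Macrophages are the phagocytes of tissues, and in skin they lie in the dermis and around vessels and hair follicles. Their survival depends on CSF1R, a receptor tyrosine kinase bound by CSF1 and IL34. They take up particles through Fc, complement and scavenger receptors and pass signals through small adaptors such as TYROBP. Macrophages are a common component of melanomas, and their transcripts enter any RNA prepared from whole lesions.

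RNA of 6 groups was hybridised to 13 Affymetrix arrays, 1 per sample. Uncultured tissue came from Cdkn2a/Braf/Lkb1 melanoma (2 arrays), Cdkn2a/Braf melanoma (2 arrays) and Lkb1/Braf melanocytic proliferations, which were pooled (3 arrays). FACS-purified melanocytes were labelled Cdkn2a/Braf at day 50, when growth had arrested (2 arrays), Cdkn2a/Braf at day 19, when it had not (2 arrays), and Cdkn2a only, with wild-type Braf, at day 19 (2 arrays). Cdkn2a is thus altered in every group except the Lkb1/Braf proliferations, the 3 sorted groups share it, and the 3 lesion groups share Braf. Cdkn2a encodes cell cycle inhibitors, Braf a kinase of the MAP kinase pathway that is activated in most naevi, and Lkb1, whose gene symbol is Stk11, a kinase that restrains mTORC1. The sources used here do not give the driver of the alleles, the strain, the start of the day count or the number of lesions pooled. The labels call the samples of a group biological replicates without saying whether they came from separate animals, so p-values measure the spread between these samples.

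Values are levels, log2(intensity + 1), and differences are on that log2 scale with the standard error (SE) of a limma fit over all 13 arrays. A gene was called at an adjusted p under 0.05, adjusted over the 19937 genes. Levels of different probe sets are not set against each other. In tissue, fewer macrophages and less RNA per macrophage cannot be told apart.

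Array medians lay between 6.31 and 6.57. The interquartile range of levels was 2.89 and 2.71 in Cdkn2a/Braf/Lkb1 melanoma and 2.45 and 2.53 in Cdkn2a/Braf melanoma. In the proliferations it was 2.00, 2.04 and 2.11. Stk11 lay at 7.86 to 8.36 in the 5 arrays of Lkb1 genotypes and at 7.66 to 9.27 in the 8 others, where the day 50 arrays were at 9.17 and 7.66. Cdkn2a and Braf gave values in every group, and whether the probe sets lie in the altered part was not examined. Melanocyte markers were low in the melanomas. The mean level of 8 melanocyte genes was 5.53 to 5.60 in Cdkn2a/Braf/Lkb1 melanoma, 5.76 to 6.21 in Cdkn2a/Braf melanoma and 8.04 to 8.12 in the proliferations, against 10.52 to 11.94 in sorted melanocytes. Dct, a pigment enzyme chosen after its values were seen, was at 4.78 to 5.95 in the 4 melanoma arrays and at 12.69 to 13.33 in the 6 sorted ones. Replicate 2 of both day 19 groups stood apart from replicate 1 in myeloid transcripts, Tyrobp among them, as given below, and the results that rest on these arrays are given with and without them.

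**Figure D1:**
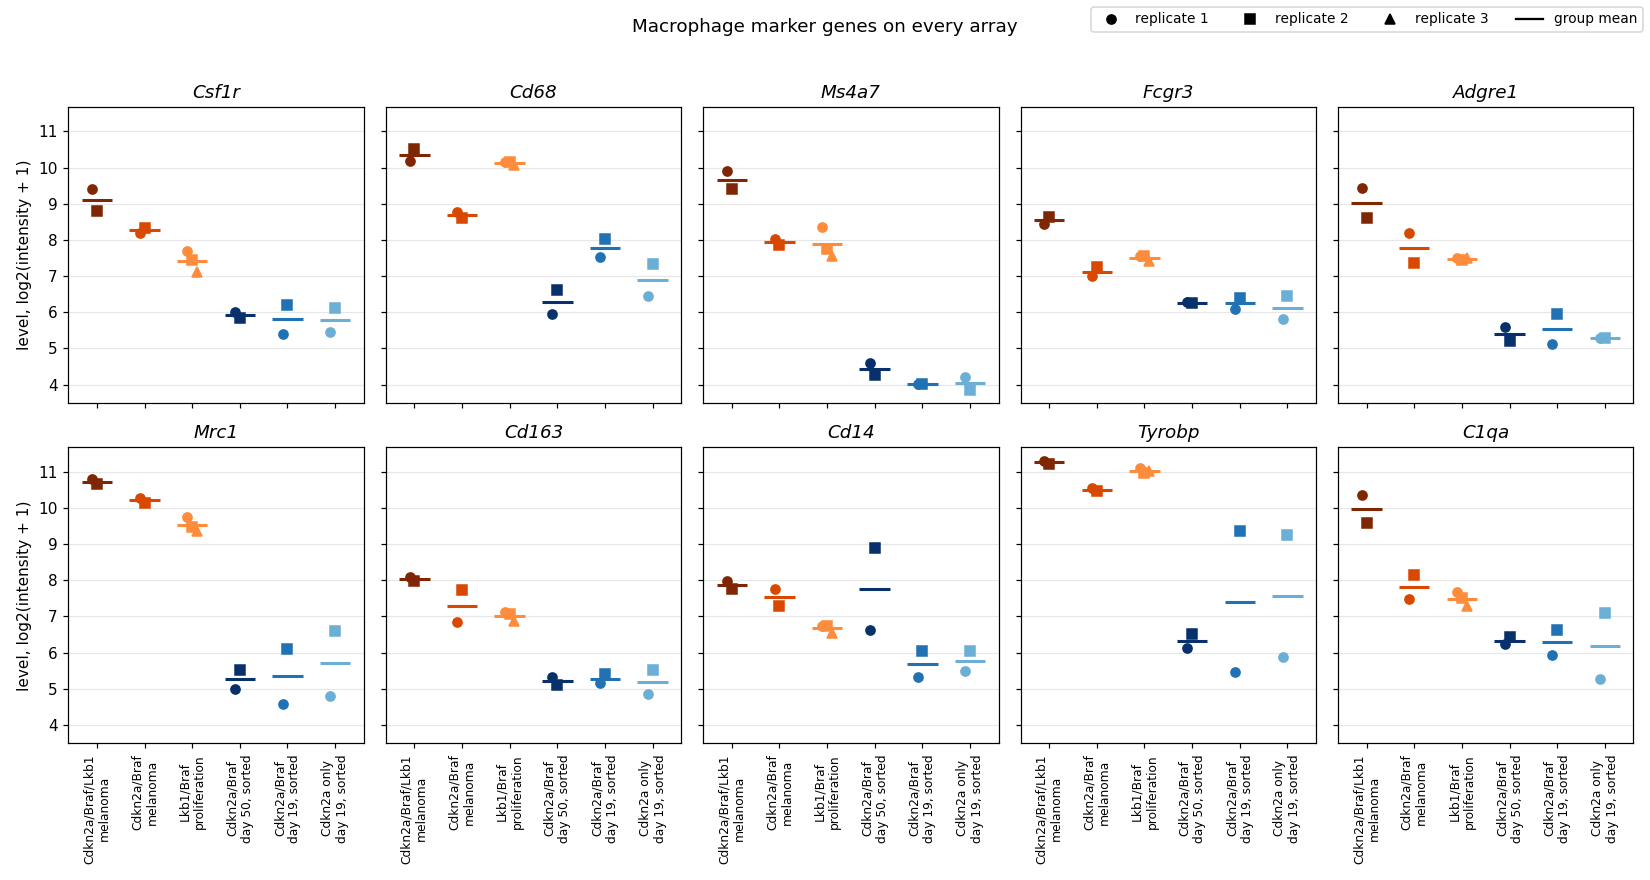
Level, log2(intensity + 1), of each marker (1 panel per gene) on the 13 arrays. Points are arrays, with the shape giving the replicate number, and lines are group means. In 9 of the 10 panels every tissue array lies above every sorted array, and the exception is Cd14. The share of all genes with such a gap was not counted.

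The receptor and surface markers that define macrophages were high in all 3 lesion types. Csf1r, the CSF1 receptor, was at 9.42 and 8.81 in Cdkn2a/Braf/Lkb1 melanoma, 8.20 and 8.34 in Cdkn2a/Braf melanoma and 7.69, 7.45 and 7.12 in the proliferations, against 5.41 to 6.20 (median 5.92) in sorted melanocytes. The 3 lesion groups did not overlap, and the sorted groups overlapped each other. Adgre1, which encodes the F4/80 antigen, was at 9.44 and 8.60 in Cdkn2a/Braf/Lkb1 melanoma, 8.18 and 7.36 in Cdkn2a/Braf melanoma and 7.43 to 7.51 in the proliferations, against 5.11 to 5.94 in sorted melanocytes. Here Cdkn2a/Braf melanoma and the proliferations overlapped.

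Ms4a7, a tetraspan membrane protein of tissue macrophages, was at 9.90 and 9.42 in Cdkn2a/Braf/Lkb1 melanoma, 8.02 and 7.86 in Cdkn2a/Braf melanoma and 8.35, 7.75 and 7.55 in the proliferations. On the 6 sorted arrays it was at 3.86 to 4.59, which is between the 6.2 and 10.4 percentile of all genes on those arrays. It thus lay at the dim end of the sorted arrays. Cd68, a lysosomal membrane glycoprotein, was at 10.19 and 10.51 in Cdkn2a/Braf/Lkb1 melanoma, 8.78 and 8.62 in Cdkn2a/Braf melanoma and 10.14, 10.16 and 10.08 in the proliferations. It lay above the array median on 5 of the 6 sorted arrays, with 5.95 and 6.63 at day 50, 7.53 and 8.02 in Cdkn2a/Braf melanocytes at day 19 and 6.45 and 7.33 in Cdkn2a only melanocytes at day 19.

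The uptake receptors and C1q gave the following levels. Fcgr3, a low-affinity receptor for IgG that signals through the Fc receptor gamma chain, was at 8.45 and 8.63 in Cdkn2a/Braf/Lkb1 melanoma, 6.998 and 7.245 in Cdkn2a/Braf melanoma and 7.54, 7.56 and 7.43 in the proliferations, against 5.81 to 6.45 in sorted melanocytes. C1qa, a chain of the C1q complement component that macrophages secrete, was at 10.36 and 9.58 in Cdkn2a/Braf/Lkb1 melanoma, 7.47 and 8.14 in Cdkn2a/Braf melanoma and 7.68, 7.50 and 7.28 in the proliferations, against 5.27 to 7.09 in sorted melanocytes. For both genes the Cdkn2a/Braf/Lkb1 melanomas stood above every other array.

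The mannose receptor Mrc1 was at 10.79 and 10.65 in Cdkn2a/Braf/Lkb1 melanoma, 10.28 and 10.13 in Cdkn2a/Braf melanoma and 9.35 to 9.76 in the proliferations, against 4.59 to 6.61 in sorted melanocytes. Cd163, the haptoglobin-haemoglobin receptor, was at 8.09 and 7.99 in Cdkn2a/Braf/Lkb1 melanoma, 6.85 and 7.72 in Cdkn2a/Braf melanoma and 6.88 to 7.11 in the proliferations, against 4.85 to 5.52 in sorted melanocytes. The lesion groups kept apart for Mrc1, while the arrays of Cdkn2a/Braf melanoma and of the proliferations overlapped for Cd163.

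The remaining pair are signalling components. Tyrobp, the ITAM adaptor also called DAP12, was at 11.30 and 11.22 in Cdkn2a/Braf/Lkb1 melanoma, 10.55 and 10.45 in Cdkn2a/Braf melanoma and 11.12, 10.97 and 11.02 in the proliferations. In sorted melanocytes it was at 6.14 and 6.51 at day 50, 5.46 and 9.36 in Cdkn2a/Braf melanocytes at day 19 and 5.87 and 9.24 in Cdkn2a only melanocytes at day 19. Cd14, the coreceptor that hands lipopolysaccharide to TLR4, was at 7.99 and 7.75 in Cdkn2a/Braf/Lkb1 melanoma, 7.76 and 7.30 in Cdkn2a/Braf melanoma and 6.73, 6.73 and 6.55 in the proliferations. Among sorted melanocytes it was at 6.62 and 8.89 at day 50, 5.33 and 6.05 in Cdkn2a/Braf melanocytes at day 19 and 5.48 and 6.03 in Cdkn2a only melanocytes at day 19. The array with the highest Cd14 level of all 13 was therefore a sorted one.

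The promoters of Cd68, Ms4a7 and Fcgr3 are shown because these 3 markers were called in the comparison of the melanomas. RefSeq promoters on GRCm38.p6 were examined for 5 of the 10 markers (7 promoters). Each held 300 bases, from 250 before to 50 after the start of a transcript. Promoters of Csf1r, Adgre1, Cd14, Tyrobp and C1qa were not examined, so the counts for the markers do not cover these genes. Capitals mark GAGGAA or its reverse complement TTCCTC, the core at which the myeloid transcription factor PU.1, encoded by Spi1, is known to bind. Of the 32851 promoters in the table, 28.3% held the motif on either strand. Of the 7 promoters of the markers, 5 held it, while that of Cd163 and 1 of the promoters of Ms4a7 did not. The promoters of Fcgr3 overlap and share a single match, which is counted for each. By gene, 4 of the 5 markers held a match. Where a gene has several, a promoter with a match is shown. Positions are counted from the start, with negative numbers before it and the first base of the match given. The match was at -225 and 30 in Cd68, at 44 in Ms4a7 and at -6 in Fcgr3, and a match is no evidence of binding.
Cd68, chr11:69666121-69666420, minus strand: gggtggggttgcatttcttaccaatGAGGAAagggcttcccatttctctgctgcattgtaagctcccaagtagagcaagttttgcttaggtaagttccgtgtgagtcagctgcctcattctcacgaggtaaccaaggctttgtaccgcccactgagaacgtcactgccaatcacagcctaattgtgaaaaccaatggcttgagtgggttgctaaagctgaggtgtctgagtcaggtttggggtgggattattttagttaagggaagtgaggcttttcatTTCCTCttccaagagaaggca
Ms4a7, chr19:11336097-11336396, minus strand: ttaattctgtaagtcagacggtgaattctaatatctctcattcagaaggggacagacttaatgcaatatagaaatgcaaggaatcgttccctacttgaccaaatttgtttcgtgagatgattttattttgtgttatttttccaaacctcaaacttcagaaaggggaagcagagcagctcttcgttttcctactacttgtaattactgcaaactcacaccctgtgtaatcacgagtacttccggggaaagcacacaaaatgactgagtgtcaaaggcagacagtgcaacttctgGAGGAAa
Fcgr3, chr1:171059354-171059653, minus strand: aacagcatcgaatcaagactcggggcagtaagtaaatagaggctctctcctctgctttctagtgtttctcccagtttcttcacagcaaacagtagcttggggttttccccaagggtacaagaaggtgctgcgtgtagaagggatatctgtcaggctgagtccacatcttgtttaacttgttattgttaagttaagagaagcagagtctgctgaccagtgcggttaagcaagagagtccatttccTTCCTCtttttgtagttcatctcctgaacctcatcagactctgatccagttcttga

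All lesions were first set against all sorted melanocytes. All 10 markers were called higher in uncultured tissue, where 15.7% of all genes were called higher, 16.5% lower and 32.2% in either direction. The differences were largest for Mrc1 at 4.72 (SE 0.31), Ms4a7 at 4.33 (SE 0.15) and Tyrobp at 3.84 (SE 0.65), and they were 2.74 for Cd68, 2.68 for Adgre1, 2.43 for Csf1r, 2.23 for Cd163, 2.16 for C1qa and 1.51 for Fcgr3. The median over the markers was 2.56, beside -0.08 over all genes. Of the 70 marker values in tissue, 0 lay below the median of their array, while 45 of the 60 values in sorted melanocytes did. In this pooled comparison material and genotype differ together and cannot be told apart, and the labels give no day for the lesions. Within the Cdkn2a/Braf label, the mean level of the 10 markers was 8.31 and 8.32 in melanoma. In sorted melanocytes of that label it was 5.46 and 6.41 at day 19 and 5.77 and 6.06 at day 50. Material and lesion state still differ together there and cannot be told apart.

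Cd14 was the marker with the smallest difference, 0.96 (SE 0.32, adjusted p = 0.0436, limma). Its tissue arrays lay between 6.55 and 7.99 and its sorted arrays between 5.33 and 8.89, so the ranges overlapped. Of the 22 settings run, 6 called it, with an adjusted p from 0.000111 to 0.195. Without the replicate 2 arrays of both day 19 groups, Tyrobp differed by 5.05 in place of 3.84, and Cd14 by 1.17 without a call (adjusted p = 0.0697).

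Replicates at day 19 differed widely in few genes, and Tyrobp was among these. Over all genes the SD of the difference, replicate 2 minus replicate 1, was 0.292 in Cdkn2a/Braf and 0.361 in Cdkn2a only melanocytes. The difference was above 2 in both genotypes for 5 genes and below -2 in both for 0. These 5 were Retnla with 5.89 and 4.86, the MHC class II gene H2-Aa with 4.05 and 3.88, Tyrobp with 3.91 and 3.37, the lysozyme gene Lyz2 with 2.79 and 2.90, and the protease gene Ctss with 3.77 and 2.32, the Cdkn2a/Braf value first in each pair. They were singled out after their values were seen.

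The other markers followed Tyrobp unequally. Replicate 2 was higher by 1.50 and 1.80 for Mrc1, by 0.70 and 1.81 for C1qa and by 0.79 and 0.66 for Csf1r in Cdkn2a/Braf and Cdkn2a only melanocytes. For Ms4a7 the difference was 0.01 and -0.36. Ms4a7 thus stayed at 4.02 and 3.86 on the arrays where Tyrobp was at 9.36 and 9.24. Ptprc, which encodes CD45 of all leukocytes, differed by 1.90 and 0.79. At day 19 the mean level of 6 pan-leukocyte genes was 5.80 and 6.70 in Cdkn2a/Braf and 5.94 and 6.42 in Cdkn2a only melanocytes, replicate 1 first. At day 50 it was 5.80 and 6.16. With 2 arrays per group these gaps have no test, and the part of leukocytes in them was not tested.

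**Figure D2:**
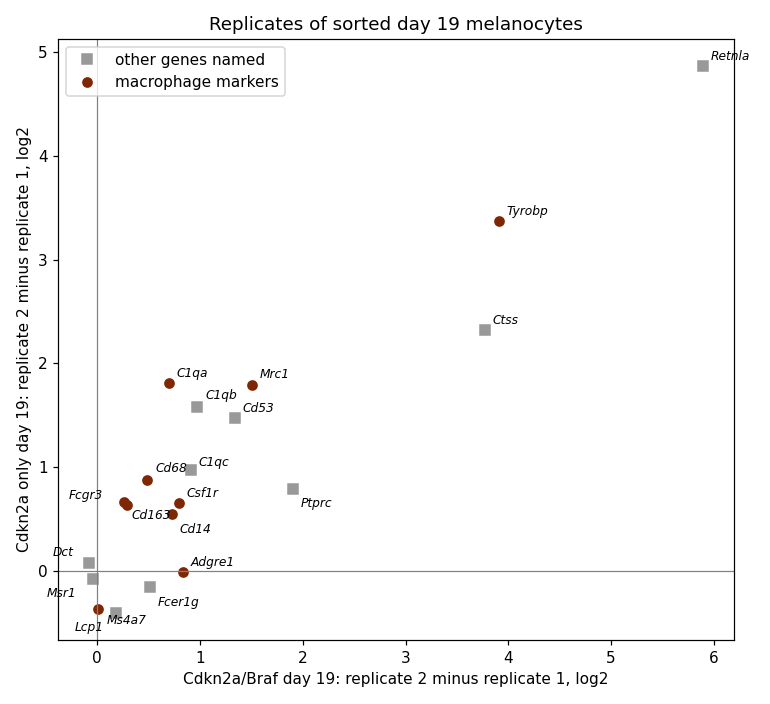
Difference between replicate 2 and replicate 1 (log2) in Cdkn2a/Braf melanocytes at day 19 (horizontal axis) and in Cdkn2a only melanocytes at day 19 (vertical axis). Circles are the 10 macrophage markers and squares genes of other lists. Tyrobp, at 3.91 and 3.37, lies far from the other markers, and Ms4a7 lies near 0.

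Lkb1 alteration on top of Cdkn2a/Braf was examined by setting the melanomas of both genotypes against each other. Of the markers, 3 of 10 were called higher in Cdkn2a/Braf/Lkb1 melanoma and 0 lower, while 1.83% of all genes were called higher and 0.732% lower. Ms4a7 rose by 1.72 (SE 0.26, adjusted p = 0.00911), Cd68 by 1.65 (SE 0.30, adjusted p = 0.0197) and Fcgr3 by 1.42 (SE 0.20, adjusted p = 0.00635, all limma). These are 3.30-fold, 3.15-fold and 2.68-fold on the scale of intensity + 1. The median difference over the 10 markers was 1.05, beside -0.04 over all genes. The arrays of the melanoma genotypes did not overlap for 9 of the 10, the exception being Cd14. With 2 arrays on each side this is a weak mark, and its share over all genes was not counted. Overlap was also absent for 6 of 6 pan-leukocyte, 4 of 4 Fc receptor, 5 of 8 melanocyte, 3 of 5 fibroblast, 2 of 5 endothelial and 1 of 5 keratinocyte genes.

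The 7 other markers were not called. C1qa had the largest difference of all markers, 2.17 (SE 0.51, adjusted p = 0.0568), followed by Adgre1 with 1.25 (SE 0.35, adjusted p = 0.0876). Csf1r differed by 0.85 (adjusted p = 0.178), Cd163 by 0.75 (adjusted p = 0.18), Mrc1 by 0.51 (adjusted p = 0.668) and Cd14 by 0.34 (adjusted p = 0.8). Tyrobp differed by 0.76 with an SE of 1.16 (adjusted p = 0.776), and with an SE of 0.16 (adjusted p = 0.0668) once replicate 2 of both day 19 groups was left out. In a fit of the 7 tissue arrays alone its SE was 0.13, and Tyrobp (adjusted p = 0.0215) and C1qa (adjusted p = 0.0112) were called too. Over the settings run the adjusted p ranged from 0.0215 to 0.945 for Tyrobp and from 0.0112 to 0.224 for C1qa.

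The calls of Cd68 and Ms4a7 depended on scaling and on single arrays. With each array scaled to a common interquartile range, their adjusted p was 0.113 and 0.0514, and without replicate 2 of Cdkn2a/Braf melanoma it was 0.129 and 0.077. The adjusted p ranged from 0.00313 to 0.129 for Cd68 and from 0.00592 to 0.077 for Ms4a7 over the settings run, and both kept their sign throughout.

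Some genes of the related lists were also called higher in Cdkn2a/Braf/Lkb1 melanoma. Among Fc receptor genes, 3 of 4 were called higher, namely Fcgr2b with 1.66, the high-affinity receptor Fcgr1 with 1.43 and the shared gamma chain Fcer1g with 0.91. Fcgr2b and Fcgr3 are related in sequence, and probes of either could bind both. Spi1, which encodes PU.1, rose by 1.41 (adjusted p = 0.0116) and the myeloid factor Irf8 by 0.62 among the 5 transcription factors measured. Of 6 partners of TYROBP, 1 was called, the receptor Clec5a with 1.91 (adjusted p = 0.00263). Of 8 scavenger and resident macrophage genes, 2 were called, Msr1 with 1.44 and the folate receptor gene Folr2 with 1.19. The CSF list held 4 genes, the CSF1R ligands Csf1 and Il34 and the CSF2 receptor chains Csf2ra and Csf2rb. Of these, 1 was called, Csf2rb, a chain of the CSF2 and IL3 receptors, with 1.70, while the ligand genes were not called. Of 6 C1q and complement receptor genes, 1 was called, the integrin chain Itgb2 with 0.66. Of the 17 genes called over all the other lists, 8 were called under quantile normalization and 8 with a common interquartile range. The same 8 were called under both, namely Spi1, Fcgr1, Clec5a, Msr1, Plac8, the fibroblast gene Col1a1, Sall1 and, lower, the mast cell gene Mcpt4. Fcgr2b, Fcer1g, Folr2, Csf2rb, Irf8, Itgb2, Il1b, S100a8 and Itgax were called under neither.

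Some companions were not called. C1qb and C1qc, which encode the other chains of C1q, differed by 0.58 (adjusted p = 0.57) and 0.46 (adjusted p = 0.617), beside the 2.17 of C1qa, and they were named after their values were seen. Of the partners of CD14 and TLR4, 0 of 5 were called in either direction, with a median difference of 0.07. Of the macrophage lysosome genes, 0 of 8 were called, with a median of -0.05, although Cd68 rose. The mean level of these 8 genes was 10.37 to 10.69 in tissue and 10.54 to 11.04 in sorted melanocytes at day 19. Against all sorted melanocytes, 2 of the 8 were called higher in tissue and 3 lower, so the list was not particular to tissue. C1qb was at 8.75 and 8.18 in Cdkn2a/Braf/Lkb1 melanoma, against 7.85 and 7.92 in Cdkn2a/Braf melanoma.

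**Figure D3:**
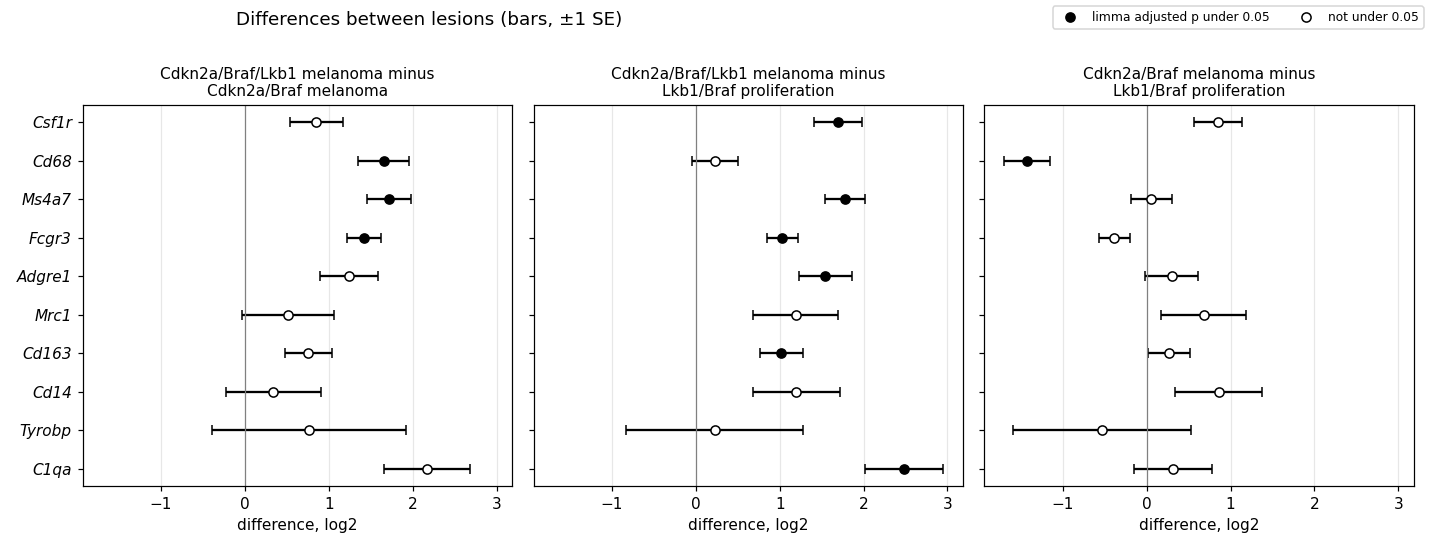
Difference (log2) of each marker between lesion groups, 1 panel per comparison, with bars of 1 SE from limma. Filled circles passed an adjusted p of 0.05 over all genes. Cd68 is higher in the left panel, at 1.65, and lower in the right panel, at -1.43, while Tyrobp has the widest bars.

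Some markers of other cells were also called between the melanoma genotypes, where 2.56% of all genes were called in either direction. Of 6 pan-leukocyte genes 0 were called, with a median of 1.15. Of 3 monocyte genes 1 was called, Plac8 with 2.05, and the median was 0.09. Of 5 dendritic cell genes 1 was called, Itgax with 1.32, and the median was also 0.09. Of 6 neutrophil genes 1 was called, S100a8 with 2.32, and the median was 1.45. Of 8 activation genes 1 was called, the interleukin gene Il1b with 2.26, and the median was 0.57. Of 5 fibroblast genes 1 was called, Col1a1 with 1.39, and the median was 0.51. Of 5 mast cell genes 1 was called lower, the protease gene Mcpt4 with -2.71, and the median was -1.31. Of 3 microglia genes 1 was called, Sall1 with 1.75, and the median was 0.78. None of the T and NK cell, B cell, Langerhans cell, melanocyte, endothelial, lymphatic endothelial, keratinocyte and erythrocyte genes was called. The mean level of 6 neutrophil genes was 6.76 and 8.39 in Cdkn2a/Braf/Lkb1 melanoma, against 6.15 and 6.49 in Cdkn2a/Braf melanoma. That of 6 T and NK cell genes was 5.94 and 5.85 in Cdkn2a/Braf/Lkb1 melanoma, against 5.60 and 5.66 in Cdkn2a/Braf melanoma. The part of these cells in the marker differences was not tested.

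Cdkn2a/Braf/Lkb1 melanoma was next set against the Lkb1/Braf proliferations, a comparison that uses the same melanoma arrays as the one before. Of the markers, 6 of 10 were called higher and 0 lower, where 20% of all genes were called higher, 20.6% lower and 40.6% in either direction. The median over the markers was 1.20, beside -0.04 over all genes. C1qa rose by 2.48 (SE 0.47, adjusted p = 0.00281), Ms4a7 by 1.78 (SE 0.24, adjusted p = 0.000482), Csf1r by 1.70 (SE 0.29, adjusted p = 0.00166), Adgre1 by 1.54 (SE 0.32, adjusted p = 0.00424), Fcgr3 by 1.03 (SE 0.18, adjusted p = 0.00207) and Cd163 by 1.02 (SE 0.26, adjusted p = 0.0113, all limma). Mrc1 differed by 1.19 (adjusted p = 0.0826) and Cd14 by 1.20 (adjusted p = 0.0879), and both were called in the fit of tissue arrays alone. Over the settings run the adjusted p ranged from 0.000681 to 0.797 for Mrc1 and from 0.00101 to 0.282 for Cd14.

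Cd68 and Tyrobp differed by 0.22 (SE 0.27, adjusted p = 0.527) and 0.23 (SE 1.06, adjusted p = 0.876). They were not called in any of the 23 settings run, and their sign changed under some of them. Cd163 was not called under quantile normalization (0.75, adjusted p = 0.0591), and Adgre1 and Cd163 were not called without replicate 1 of Cdkn2a/Braf/Lkb1 melanoma (adjusted p = 0.0518 and 0.073). Over the settings run the adjusted p ranged from 0.00264 to 0.0518 for Adgre1 and from 0.00437 to 0.073 for Cd163.

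Among the partners, the ligand genes Csf1 and Il34 rose by 1.11 and 0.89 in Cdkn2a/Braf/Lkb1 melanoma relative to the proliferations. Tlr4 rose by 1.57, Tlr2 by 1.33, Ly96 by 1.31 and Myd88 by 0.85, so 4 of the 5 partners of CD14 and TLR4 measured were called. Msr1 rose by 2.93 and the C-type lectin gene Clec10a by 1.83, with 5 of 8 scavenger and resident macrophage genes called higher. Trem2, a receptor that signals through TYROBP, fell by 0.65 (adjusted p = 0.00248, limma), while Clec5a rose by 2.04. Trem2 was at 6.61 and 6.86 in Cdkn2a/Braf/Lkb1 melanoma and 7.27 to 7.50 in the proliferations. On the sorted arrays it was at 6.99 to 7.32, so it was not raised in tissue as the markers were. Of 6 C1q and complement receptor genes, 3 were called, C3ar1 with 1.56, C5ar1 with 1.49 and Itgam with 1.48.

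Cdkn2a/Braf melanoma and the Lkb1/Braf proliferations, whose arrays also enter the comparisons above, differed in 1 marker. Cd68 fell by 1.43 in Cdkn2a/Braf melanoma (SE 0.27, adjusted p = 0.00522, limma), a call kept in all 23 settings run, with differences from -2.02 to -1.35. Of all genes 8.88% were called lower, 12.6% higher and 21.5% in either direction, and the median over the markers was 0.28, beside -0.02 over all genes. Fcgr3 differed by -0.39 (adjusted p = 0.16), Csf1r by 0.85 (adjusted p = 0.0616), Cd14 by 0.86 (adjusted p = 0.27), Mrc1 by 0.68 (adjusted p = 0.373), Tyrobp by -0.53 (adjusted p = 0.757) and the remaining 4 by 0.06 to 0.31.

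In the fit of the 7 tissue arrays alone, where the spread of the sorted arrays does not enter, 5 markers were called between these lesions. Csf1r (adjusted p = 0.0226), Mrc1 (adjusted p = 0.0121) and Cd14 (adjusted p = 0.0069) were higher in Cdkn2a/Braf melanoma, and Cd68 and Tyrobp (adjusted p = 0.0115) were lower. Over all settings the adjusted p ranged from 0.0226 to 0.248 for Csf1r, from 0.0121 to 0.899 for Mrc1, from 0.0069 to 0.595 for Cd14 and from 0.0115 to 0.883 for Tyrobp. Mertk, a receptor for apoptotic cells, was at 8.97 and 9.64 in Cdkn2a/Braf melanoma and 7.05, 7.33 and 7.04 in the proliferations, and rose by 2.17. Arg1 fell by 0.72, Trem2 by 0.48 and Hcst, an adaptor related to TYROBP, by 0.52.

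Marker transcripts of other cells also differed between the lesions. The mean level of 5 keratinocyte genes was 5.97 and 7.22 in Cdkn2a/Braf/Lkb1 melanoma and 6.04 and 9.60 in Cdkn2a/Braf melanoma, against 11.25 to 11.37 in the proliferations. Cd207, which marks Langerhans cells, the macrophage relatives of the epidermis, was at 5.02 and 5.22 in Cdkn2a/Braf/Lkb1 melanoma and 5.61 and 5.34 in Cdkn2a/Braf melanoma, against 6.61, 6.50 and 6.51 in the proliferations. It fell by 1.42 and 1.06 relative to the proliferations. Of 3 Langerhans cell genes, 2 were called lower and 1 higher in Cdkn2a/Braf/Lkb1 melanoma, and 2 lower and 0 higher in Cdkn2a/Braf melanoma. Of 6 T and NK cell genes, 2 were called lower in Cdkn2a/Braf/Lkb1 melanoma and 4 in Cdkn2a/Braf melanoma, and Cd3g fell by 1.19 and 1.76. Of 8 macrophage lysosome genes, 4 were called higher and 1 lower in Cdkn2a/Braf/Lkb1 melanoma (median 0.40), and 3 higher and 1 lower in Cdkn2a/Braf melanoma (median 0.07), relative to the proliferations. The gene called lower was Gpnmb, a glycoprotein of both macrophages and melanocytes, which fell by 1.83 and 1.68. The part of epidermis in the marker differences was not tested.

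**Figure D4:**
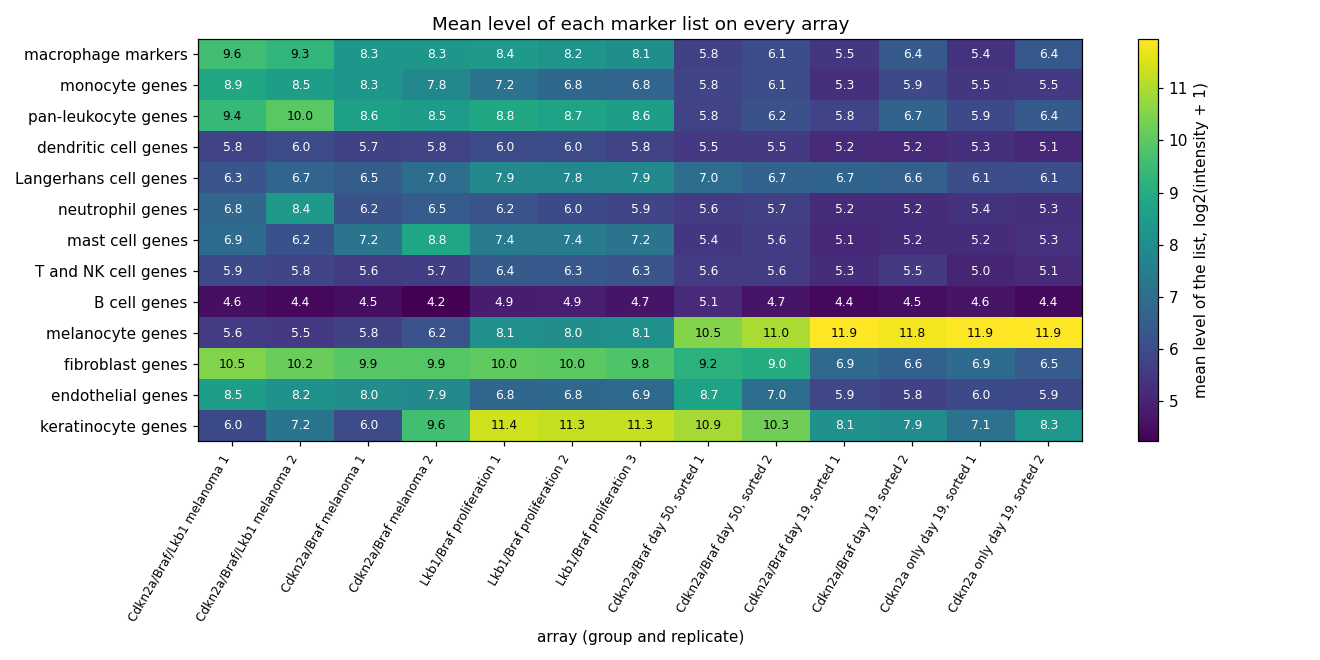
Mean level, log2(intensity + 1), of each list of marker genes (rows) on each of the 13 arrays (columns), with the value printed in each cell and shown by colour. The macrophage markers are highest on the 2 Cdkn2a/Braf/Lkb1 melanoma arrays, at 9.6 and 9.3, and levels are to be compared along a row, not between rows.

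In sorted Cdkn2a/Braf melanocytes, day 50 was set against day 19. Of the markers, 1 was called higher and 1 lower, where 11.1% of all genes were called higher, 14.5% lower and 25.6% in either direction. Cd68 fell by 1.49 at day 50 (SE 0.30, adjusted p = 0.0069) and Cd14 rose by 2.06 (SE 0.57, adjusted p = 0.027, both limma). The median over the markers was -0.03, beside 0.17 over all genes, and the all-gene value was 0.07 after centring the arrays on their medians. The other 7 markers, Tyrobp aside, differed by -0.13 to 0.41.

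Tyrobp turned its sign with the day 19 arrays that stood apart. It was at 6.14 and 6.51 at day 50, against 5.46 and 9.36 at day 19, and differed by -1.09 (SE 1.16, adjusted p = 0.47). Without replicate 2 of both day 19 groups it differed by 0.87 (SE 0.19) and was called higher at day 50 (adjusted p = 0.0296, limma), with a single Cdkn2a/Braf array left at day 19. Over the settings run its adjusted p ranged from 0.0296 to 0.666, and 1 of 23 settings called it. In that fit Cd68 differed by -1.25 (adjusted p = 0.0297) and Cd14 by 2.43 (adjusted p = 0.0773), so that Cd14 was not called.

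Both calls rested on few arrays. Cd14 was at 8.89 on 1 day 50 array and 6.62 on the other, and without the first it differed by 0.93 (adjusted p = 0.0521). Without replicate 2 at day 19 the adjusted p was 0.0579 for each of the genes, and without replicate 1 it was 0.155 for Cd14. In a fit of the 6 sorted arrays alone neither was called, with an adjusted p of 0.0773 for Cd68 and 0.126 for Cd14. Over the settings run the adjusted p ranged from 0.00193 to 0.0773 for Cd68 and from 9.76e-05 to 0.155 for Cd14.

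Of 8 macrophage lysosome genes, 6 were called lower at day 50, among them Lgmn with -2.70, Gpnmb with -1.91 and Ctsb with -1.78. Ctsd, Lamp1 and Lamp2 were among the 6, named after their values were seen, but their sign turned when arrays were scaled to a common interquartile range. Of the 5 partners of CD14 and TLR4, 2 were called lower and 0 higher, with a median of -0.56. Ly96, the TLR4 coreceptor MD-2, fell by 2.70 and the adaptor Myd88 by 1.65. Lbp, which brings lipopolysaccharide to CD14, differed by 1.44 (adjusted p = 0.0598) and was named after its value was seen. Among markers of other skin cells, 4 of 5 fibroblast, 5 of 5 endothelial, 3 of 3 lymphatic endothelial and 1 of 5 keratinocyte genes were called higher at day 50. The mean level of the endothelial genes was 8.72 and 7.01 at day 50, against 5.86 and 5.76 at day 19, and that of the keratinocyte genes was 10.91 and 10.26 at day 50, against 8.12 and 7.94 at day 19. The part of these cells in the level of Cd14 was not tested.

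The Braf allele was examined in sorted melanocytes at day 19, with the same Cdkn2a/Braf arrays. Of the markers, 0 of 10 were called by limma, where 0.291% of all genes were called in either direction, 0.236% higher and 0.0552% lower. Before adjustment, 1 marker passed a limma p of 0.05. This was Cd68, with a difference of 0.88 (SE 0.30, adjusted p = 0.463, limma). Cd68 was at 7.53 and 8.02 in Cdkn2a/Braf melanocytes, against 6.45 and 7.33 in Cdkn2a only melanocytes, without overlap. The other 9 markers overlapped between the genotypes, with differences from -0.37 to 0.24. Without replicate 2 of both groups, which leaves 1 array in each, Cd68 differed by 1.08 (adjusted p = 0.748, limma) and Tyrobp by -0.41 in place of -0.14, and 0 of 10 markers were called. Over the settings run the adjusted p ranged from 0.207 to 1 for Cd68. Myd88 rose by 1.08 (adjusted p = 0.0372) and Mfge8, a bridge to apoptotic cells, by 1.50 (adjusted p = 0.00232).

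Correlations between markers in tissue were mostly positive. Over the 7 tissue arrays the 45 pairs of markers had a median Pearson correlation of 0.746, from -0.183 to 0.976, and 33 pairs were above 0.5. Csf1r correlated with Mrc1 at 0.976 and with Cd14 at 0.925, but with Cd68 at 0.001 and with Tyrobp at 0.227. Cd68 correlated with Tyrobp at 0.954 and with Fcgr3 at 0.732, and Tyrobp correlated with Fcgr3 at 0.814, with Ms4a7 at 0.651 and with C1qa at 0.553. Over the 6 sorted arrays the median was 0.409, from -0.853 to 0.974, with 18 pairs above 0.5. These are descriptions of few arrays that share groups.

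**Figure D5:**
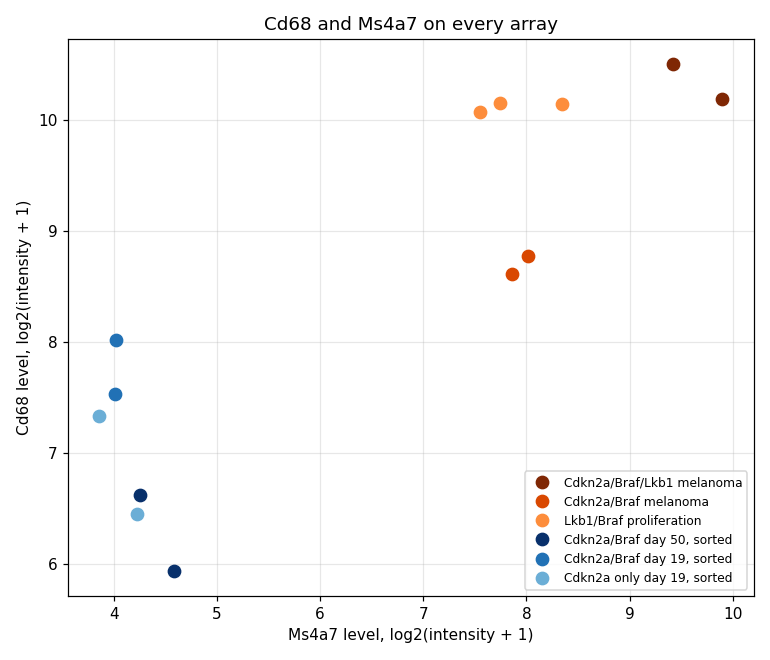
Level of Ms4a7 (horizontal axis) and Cd68 (vertical axis), log2(intensity + 1), on each of the 13 arrays, coloured by group. Cdkn2a/Braf melanoma and the proliferations share Ms4a7 levels between 7.55 and 8.35 but lie apart in Cd68, at 8.62 to 8.78 and 10.08 to 10.16.

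The order of the groups differed between markers. By the levels given above, Cdkn2a/Braf/Lkb1 melanoma had the highest group mean for all 10 markers. For Cd68 and Tyrobp its place above the proliferations depended on the setting. Their differences ranged from -0.81 to 0.38 and from -1.10 to 0.34 over the settings run. Cdkn2a/Braf melanoma came next for Csf1r, Ms4a7, Adgre1, Mrc1, Cd163 and C1qa, and overlapped with the proliferations for Ms4a7, Adgre1, Cd163 and C1qa. The proliferations came next for Cd68, Fcgr3 and Tyrobp, and the day 50 melanocytes for Cd14, where they overlapped with both melanoma groups. Among the sorted groups, the neighbours in the order overlapped for every marker except Ms4a7, Cd68 and Cd14. For Ms4a7 and Cd14 the day 50 arrays lay above the other sorted arrays, and for Cd68 the Cdkn2a/Braf arrays of day 19 did.

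The 10 genes most like the markers, by Pearson correlation over the 13 arrays with the mean of the scaled marker levels, were Clec4a3 (0.986), Cd53 (0.985), Nckap1l (0.982), Clec4a1 (0.982), Ptpn22 (0.98), Ptprc (0.979), Trim30a (0.979), Lilrb4a (0.978), C3ar1 (0.977) and Casp8 (0.977). Within the 7 tissue arrays the correlation was 0.991 for Clec4a1 and 0.843 for Lilrb4a, the highest and lowest of the 10. Within the 6 sorted arrays it was 0.93 for Lilrb4a and 0.466 for Ptpn22. All 13 arrays share the gap between tissue and sorted material.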

How the data were processed

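Per the labels, total RNA was purified with RNeasy and amplified and labelled with Ovation V2 and Encore reagents. The deposited intensity values were made by the authors with RMA, per the submitters' processing notes, which with the other sources used here give no version. RMA gives log2 values, but the deposited values are linear (3.35 to 17698), so log2(intensity + 1) was taken. Of 34760 probe sets, 21640 had 1 gene in the platform annotation and gave 19937 genes; 0 value columns lacked a sample. The 6 group means over 13 arrays were estimated by limma (version 3.58.1, under R version 4.3.3, with 7 residual and 3.08 prior degrees of freedom). Tests were two-sided, and p-values were adjusted over the 19937 genes by the Benjamini-Hochberg method, with a threshold of 0.05. The number of arrays limits the precision. Tables and plots used Python 3.11.15, pandas 2.3.3, numpy 2.4.6 and matplotlib 3.10.9, and the fit was tested on simulated data.

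The markers and the lists of other genes were chosen with earlier results of these data known. All 10 markers were named, and of each list up to 4 called genes with the largest difference; exceptions are stated. The genes most like the markers were the 10 with the highest correlation with their mean scaled level. Alternatives were a pseudocount of 16, median centring, quantile normalization, a common interquartile range, the mean of a gene's probe sets, a filter on dim genes (a log2 level above 6 in at least 2 arrays), a trended robust variance, arrays of the same material only, the replicate number as a block, and leaving out each array in turn.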

Additional observations from a re-analysis of the deposited data

How the results depend on the processing

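The 22 called marker differences were refitted under the alternatives, 499 fits in all, of which 465 kept the direction and the call, 34 kept the direction without the call and 0 turned direction. Of the 38 differences not called, 23 changed sign in at least 1 alternative. In Cdkn2a/Braf/Lkb1 against Cdkn2a/Braf melanoma, the 3 called markers became 1 with a common interquartile range and 5 in the fit of tissue arrays alone. In Cdkn2a/Braf melanoma against the proliferations, the 1 called marker became 2 with median centring, 2 with quantile normalization, 5 in the fit of tissue arrays alone and 4 without both day 19 replicate 2 arrays, a setting chosen after seeing the data. At day 50 against day 19, the 2 called markers became 0 in the fit of sorted arrays alone, and without both day 19 replicate 2 arrays the 2 called were Cd68 and Tyrobp in place of Cd68 and Cd14. The cause was not tested. Leaving out 1 array at a time gave 1 to 4 markers between the melanomas (1 without Cdkn2a/Braf melanoma replicate 2), 4 to 7 for Cdkn2a/Braf/Lkb1 melanoma and 1 to 3 for Cdkn2a/Braf melanoma against the proliferations, 0 to 2 for day 50 against day 19, 0 for the day 19 genotypes and 9 to 10 for tissue against sorted melanocytes. Where this left 1 array in a group, that array was assumed to vary like the other groups.

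The labels do not say whether a replicate number marks a shared animal, day or batch. Over all genes the deviations of same-numbered arrays correlated at -0.117 to 0.06, so the numbers were not taken as pairs, although replicate 2 of both day 19 groups shared the large gaps of the 5 genes named above. With the replicate block the counts were 3, 6, 1, 2, 0 and 9 in the order of the comparisons just given, the 9 lacking Cd14. With crossed numbers as a replicate block on the 4 melanoma arrays, a pairing chosen after seeing the data, 0 markers and 1 gene were called, against 0 markers and 7 genes with the same numbers. With 2 arrays in 5 of the 6 groups, and marker levels low on the sorted arrays, small differences there may be missed.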
